A study of Caenorhabditis elegans with 6 samples.

Results

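The 10 germline and oocyte genes described here were taken by name from a table of 19512 genes, by a rule that names them and sets no value: *pgl-1* (ZK381.4), *glh-1* (T21G5.3) and *glh-2* (C55B7.1), which encode P granule proteins, *pie-1* (Y49E10.14), *mex-5* (W02A2.7), *pos-1* (F52E1.1), *oma-1* (C09G9.6) and *oma-2* (ZC513.6), which encode CCCH zinc-finger RNA-binding proteins, and *puf-5* (F54C9.8) and *rme-2* (T11F8.3), which act in growing oocytes. All 10 passed the filter on low counts and were tested. The study asked which genes depend on ELT-2, the GATA transcription factor of the *C. elegans* intestine. Wild-type N2 larvae, synchronized at the first larval stage (L1), were fed empty-vector bacteria (control) or bacteria that make dsRNA of *elt-2* (elt-2 RNAi) and harvested after 28 h as fourth-stage larvae (L4). Each group has 3 libraries, biological replicates lettered A, B and C, made from polyadenylated RNA of whole worms, so every tissue is in each library, and fewer germ cells cannot be told apart from less RNA per germ cell.

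In the hermaphrodite the germ line grows throughout larval life, makes sperm during L4 and then switches to oocytes. P granules, bodies of RNA and protein that are mostly perinuclear, are present in germ cells of most stages. The maternal messages for CCCH proteins, PUF proteins and the yolk receptor are made in the meiotic germ line and growing oocytes, where many of them are held untranslated until the oocyte matures or the embryo forms.

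The libraries differed in ways that touch every value below. Total counts ran from 16568515 to 24168901 in the control-labelled libraries and from 29578175 to 35047530 in the RNAi-labelled ones, and the most abundant 3% of genes took from 71.1% (control A) to 92.7% (RNAi C) of them. Factors of the trimmed mean of M-values (TMM), which align the bulk of genes between libraries, ran from 3.45 (control A) down to 0.491 (RNAi C). Levels are TMM-scaled CPM, the counts of a gene per 1000000 counts of its library after this correction, unless library-size CPM, the scaling by total counts alone, is named. The target gene went against the labels. Counts of *elt-2* were 233, 48 and 78 in control-labelled A, B and C and 689, 111 and 3070 in RNAi-labelled A, B and C, a log2 fold change (log2FC) of 4.60 ± 1.16 (SE, edgeR adjusted p = 0.0395), lost without control A (4.70, adjusted p = 0.103) or RNAi C (2.80, adjusted p = 0.135). By library-size CPM the *elt-2* groups overlapped, at 6.46 ± 6.61 (control-labelled) and 38.2 ± 43.9 CPM (RNAi-labelled, SD, n = 3 each). The log2FC was then 2.57 (edgeR adjusted p = 0.0502). Given these *elt-2* values, groups are named by their labels throughout, as control-labelled and RNAi-labelled libraries. Of whole-worm tissue markers, 6 of intestine, 3 of body wall muscle, 2 of pharynx, 4 of neurons and 4 of hypodermis were tested. Of these, edgeR called 1, 0, 1, 0 and 0 higher and 1, 0, 0, 3 and 2 lower. Among all genes tested, it called 13.0% higher and 15.9% lower. The intestine markers, named after their values were seen, were mixed. *act-5* was called higher (log2FC 2.25, edgeR adjusted p = 0.0354) and *elt-7* lower (-1.44, 0.0566). *ges-1* (-1.18, 0.203), *ifb-2*, *spl-1* and *mtl-2* were not called. Counts of *mtl-2* were 2982, 106 and 16845 in control-labelled A, B and C and 746, 20081 and 1009 in the RNAi-labelled ones. The 2 hypodermis genes called lower, *dpy-10* and *sqt-3*, were high in control A and B alone. Counts of *sqt-3* were 3946, 6683 and 38 in control-labelled A, B and C and 55, 49 and 70 in the RNAi-labelled ones. *dpy-5* went the other way, with 167, 357 and 1595 against 1430, 1311 and 1611, and *dpy-7* was not tested. For muscle, 1 was higher at an unadjusted p under 0.05, and DESeq2 called 1. The neuron marker *rgef-1* had 0 to 3 counts per library.

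Of the 10 germline genes, *glh-1* was higher and *pos-1* lower in the RNAi-labelled libraries at an adjusted p under 0.10 (edgeR quasi-likelihood test, Benjamini-Hochberg over 11474 genes). Among all genes tested, 13.0% were called higher and 15.9% lower, so the members' counts of 1 and 1 were not above the rate for genes in general. The levels of 4 members did not overlap between the groups and were higher in RNAi-labelled libraries (*pgl-1*, *glh-1*, *glh-2*, *rme-2*), against 22.5% of all genes. A further 4 did not overlap and were lower (*pie-1*, *mex-5*, *pos-1*, *oma-1*), against 24.2% of all genes, while *oma-2* and *puf-5* overlapped.

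**Figure D1:**
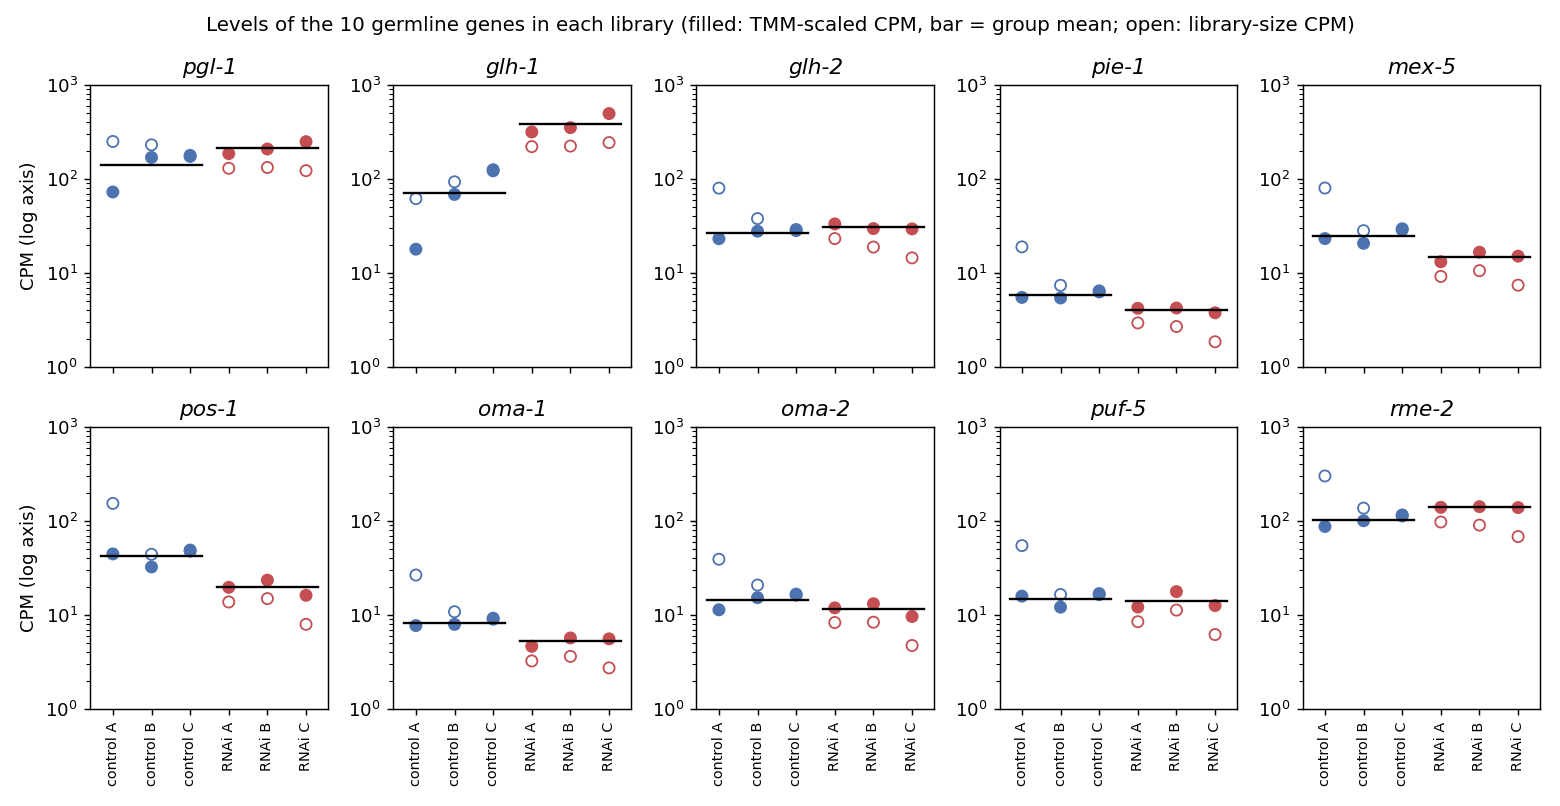
Each panel plots 1 gene in the 6 libraries (x axis, blue labelled control, red labelled elt-2 RNAi), with CPM on a log axis: filled points are TMM-scaled CPM, bars their group means, open points library-size CPM. Filled points of *glh-1* run from 17.9 to 496 CPM, and open points of the other 9 genes are lower in every RNAi-labelled library than in every control-labelled one.

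Of the 3 P granule genes, *glh-1* passed the test and *glh-2* and *pgl-1* did not. *glh-1* (chromosome I, 6854478 to 6857536, plus strand of WBcel235) encodes a Vasa-type DEAD-box RNA helicase of P granules. Counts of *glh-1* were 1023, 2144 and 2952 in control-labelled A, B and C and 6529, 6725 and 8545 in RNAi-labelled A, B and C. The corresponding levels were 17.9, 68.4 and 125 CPM against 316, 352 and 496 CPM. All RNAi-labelled libraries lay above all control-labelled libraries, and the control libraries themselves spread widely, with control A lowest. Mean levels of *glh-1* were 70.5 ± 53.7 CPM (SD, n = 3) and 388 ± 95.3 CPM (SD, n = 3), a log2FC of 2.46 ± 0.72 (SE, edgeR adjusted p = 0.0557). The direction held whichever library was left out (1.86 to 3.26), but the call was lost without control B (adjusted p = 0.119) or without RNAi A (0.112), B (0.121) or C (0.196), and was kept without control A or control C. By library-size CPM *glh-1* was also higher, at 92.4 ± 30.2 against 229 ± 12.5 CPM (SD, n = 3), with a log2FC of 1.31 (edgeR adjusted p = 0.0363).

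*glh-2* (chromosome I, 6513928 to 6517507, plus strand) encodes a related P granule helicase. Levels of *glh-2* were 23.2, 27.8 and 29.0 CPM in the control-labelled libraries and 33.3, 29.7 and 29.4 CPM in the RNAi-labelled ones. The groups lay next to each other without overlapping, and the log2FC of 0.21 ± 0.33 (SE) did not pass the test (edgeR adjusted p = 0.661). Library-size scaling turned its sign, to -1.37 (edgeR adjusted p = 0.0797). Reads shared by the similar sequences of *glh-1* and *glh-2* could be lost or split, since reads were mapped uniquely, so the division of counts between these helicases is uncertain to that extent.

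*pgl-1* (chromosome IV, 6974441 to 6977318, minus strand) encodes an RGG-box protein that is a core constituent of P granules. Levels of *pgl-1* were 72.7, 169 and 178 CPM in the control-labelled libraries and 186, 208 and 249 CPM in the RNAi-labelled ones. Control A was far below the other 5 libraries, and control C and RNAi A were close. The log2FC of 0.62 ± 0.49 (SE) did not pass the test (edgeR adjusted p = 0.376), and by library-size scaling it was -0.77 (edgeR adjusted p = 0.155). Raw counts of *pgl-1* stayed between 3841 and 5304 in the 6 libraries.

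Levels of the 3 maternal CCCH genes were lower in the RNAi-labelled libraries, and of these *pos-1* passed the test. *pos-1* (chromosome V, 8414086 to 8415254, plus strand) encodes an RNA-binding protein that specifies posterior and germline fates in the early embryo. Counts of *pos-1* were 2550, 1017 and 1156 in control-labelled A, B and C and 407, 449 and 279 in the RNAi-labelled ones. The corresponding levels were 44.6, 32.5 and 49.1 CPM against 19.7, 23.5 and 16.2 CPM. Every RNAi-labelled library was below every control-labelled library. Mean levels of *pos-1* were 42.1 ± 8.60 and 19.8 ± 3.65 CPM (SD, n = 3 each), a log2FC of -1.09 ± 0.37 (SE, edgeR adjusted p = 0.0788). The direction held whichever library was left out (-1.31 to -0.86), but the call was lost in 5 of the 6 such fits, those without control A (adjusted p = 0.109) or C (0.185) or without RNAi A (0.195), B (0.166) or C (0.295), and was kept without control B (0.0751).

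*mex-5* (chromosome IV, 13353723 to 13356104, plus strand), whose product sets up the anterior-posterior difference in the zygote, had levels of 23.2, 20.7 and 29.5 CPM in the control-labelled libraries and 13.2, 16.6 and 15.1 CPM in the RNAi-labelled ones. The groups did not overlap, and the log2FC was -0.71 ± 0.34 (SE, edgeR adjusted p = 0.164). *pie-1* (chromosome III, 12426893 to 12429195, plus strand), whose product represses transcription in embryonic germline blastomeres, was scarcer, at 5.50, 5.43 and 6.45 CPM against 4.21, 4.24 and 3.77 CPM. These groups did not overlap either, with a log2FC of -0.51 ± 0.31 (SE, edgeR adjusted p = 0.253). *pie-1* overlaps *snr-6* (Y49E10.15), which lies on the opposite strand and had 3597 to 7390 counts per library. Without knowledge of strand use in the counting, some counts given to *pie-1* could come from that neighbour.

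*oma-1* and *oma-2* encode CCCH proteins that act redundantly in oocyte maturation. *oma-1* (chromosome IV, 8888976 to 8890999, plus strand) had levels of 7.72, 7.95 and 9.25 CPM in the control-labelled libraries and 4.65, 5.70 and 5.57 CPM in the RNAi-labelled ones. All 3 values of the second group lay below the first, and the log2FC was -0.65 ± 0.31 (SE, edgeR adjusted p = 0.164). *oma-2* (chromosome V, 8029439 to 8031214, plus strand) stood at 11.4, 15.3 and 16.7 CPM in the control-labelled and 11.9, 13.2 and 9.64 CPM in the RNAi-labelled libraries. These values overlapped, with control A inside the range of the RNAi-labelled libraries, and the log2FC was -0.32 ± 0.33 (SE, edgeR adjusted p = 0.501). The difference between the fold changes of *oma-1* and *oma-2* was not tested.

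Neither gene of the growing oocyte passed the test. *rme-2* (chromosome IV, 5470026 to 5473174, plus strand) encodes the receptor through which oocytes take up yolk. Levels of *rme-2* were 87.4, 101 and 116 CPM in the control-labelled libraries and 139.7, 142 and 139 CPM in the RNAi-labelled ones. The second group was tight and lay wholly above the first, with means of 101 ± 14.3 and 140.2 ± 1.66 CPM (SD, n = 3 each). The log2FC of 0.47 ± 0.39 (SE) did not pass the test (edgeR adjusted p = 0.390), and library-size scaling turned it to -1.10 (edgeR adjusted p = 0.0874). *puf-5* (chromosome II, 8575541 to 8577787, plus strand), a Pumilio-family gene needed for normal oocyte formation, had 15.9, 12.1 and 16.9 CPM against 12.2, 17.7 and 12.6 CPM. Its groups overlapped fully, with a log2FC of -0.08 ± 0.34 (SE, edgeR adjusted p = 0.875).

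The scaling changed the calls more than the directions. Library size alone turned the sign of 3 members (*pgl-1*, *glh-2* and *rme-2*) and left *glh-1* higher and the other 6 lower. By library size alone, 1 member was called higher (*glh-1*) and 8 lower, and *pgl-1* was not called, while 3.84% of all genes were called higher and 52.3% lower. The library-size CPM of *glh-1* did not overlap and was higher in RNAi-labelled libraries, and those of the other 9 did not overlap and were lower, against 6.32% and 50.2% of all genes. The median log2FC of the 10 members was -0.20 with TMM and -1.79 by library size, close to the medians of all genes tested, -0.12 and -1.76. Without the most abundant 3% of genes, library size gave 1 member higher and 5 lower, with 4955 of 11474 genes called in all. The shares of all genes by direction are not given for this scaling, so the 5 cannot be set against a general rate. The members' median was then -0.75 and the median over all genes -0.68.

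The members can also be read relative to the median gene, which takes out a shift that is common to all genes, so likeness between scalings here is no sign of stability. With TMM, 5 members lay below the median gene, *pos-1*, *mex-5*, *oma-1*, *pie-1* and *oma-2*, which are the 5 CCCH genes. *glh-1*, *pgl-1*, *rme-2*, *glh-2* and *puf-5* lay above it. The split did not hold for the genes nearest the median. *oma-2* lay above it with no filter (0.017), without control C (0.060) and without RNAi C (0.026), and *puf-5* below it with at least 10 counts in every library (-0.13), without control B (-0.098) and without both B libraries (-0.26). *glh-1* was 2.58 (TMM) and 3.08 (library size) above the median gene on the log2 scale, and *pos-1* was -0.97 and -0.98 relative to it.

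**Figure D2:**
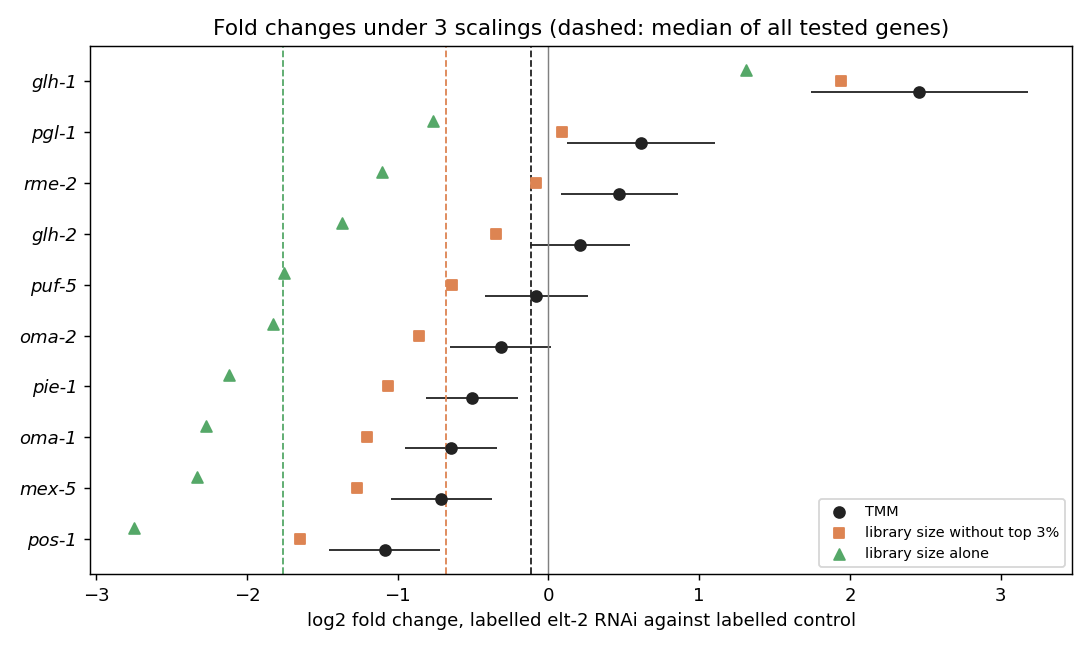
Log2FCs (x axis, labelled elt-2 RNAi against labelled control) of the 10 genes, ordered by the TMM value, under 3 scalings; bars on the TMM points are ± SE and dashed lines the median of all tested genes under the scaling of the same colour. *glh-1* lies right of its dashed line by 2.58 with TMM, and *pos-1* left of its own by 0.97.

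Shares of a library's counts are its library-size CPM in another form, and for the sum of the members they went the opposite way from TMM. The 10 genes together had 13577 to 17675 counts per library, which was 0.107%, 0.0627% and 0.0562% of the counts in control-labelled A, B and C and 0.0517%, 0.0517% and 0.0480% in the RNAi-labelled ones. With TMM the same sum was 309, 460 and 576 CPM against 741, 813 and 976 CPM. The groups overlapped under neither scaling, with the RNAi-labelled libraries lower by library share and higher with TMM. A gene's share of the members' own counts needs no scaling between libraries. These shares are tied to each other, so a larger share of *glh-1* makes those of the other members smaller. Within that sum, *glh-1* held 5.79%, 14.9% and 21.7% in the control-labelled libraries and 42.7%, 43.3% and 50.8% in the RNAi-labelled ones. The 95% Wilson interval of a member's share was at most 0.787 percentage points to either side. That interval covers counting error only, and the spread of *glh-1* over the control-labelled libraries was wider.

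The 3 P granule genes summed to 0.0392%, 0.0362% and 0.0324% of the library in control A, B, C and to 0.0374%, 0.0375% and 0.0381% in RNAi A, B, C. By library share the groups overlapped. With TMM the same sum was 114, 265.5 and 332.5 CPM against 535, 590 and 775 CPM, which did not overlap. The maternal CCCH genes *pie-1*, *mex-5* and *pos-1* summed to 0.0253%, 0.00798% and 0.00829% against 0.00259%, 0.00282% and 0.00172%. Control A stood above all other libraries for this sum. Its TMM-scaled levels were 73.4, 58.6 and 85.1 against 37.1, 44.4 and 35.1 CPM, which did not overlap and in which control A lay between control B and control C.

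**Figure D3:**
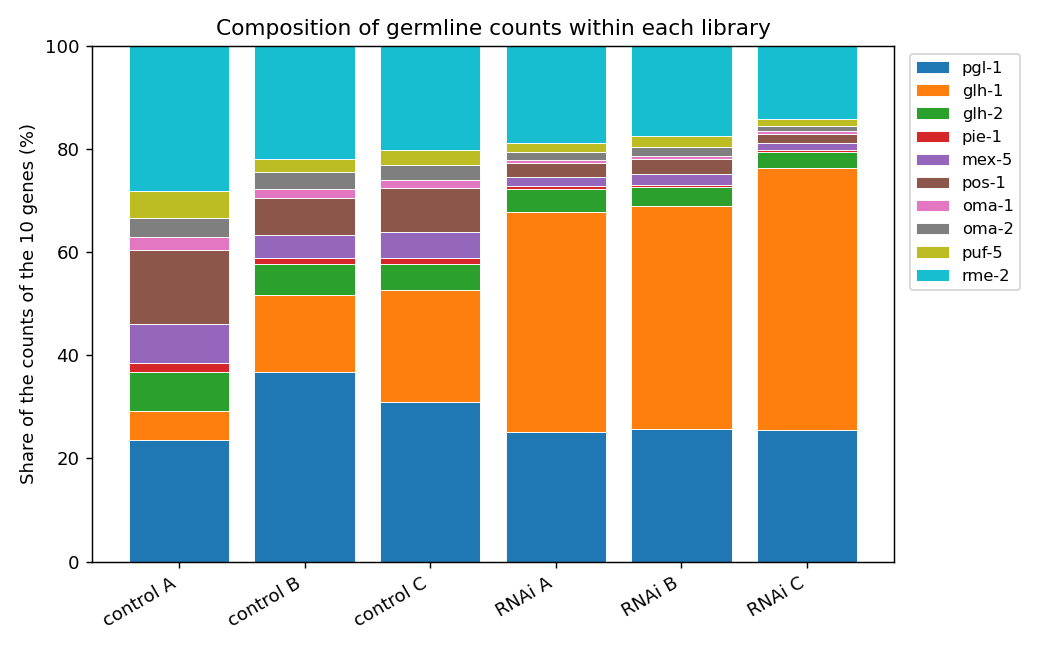
Stacked bars give each gene's share (%) of the counts of the 10 genes in each library, labelled control A to C and labelled elt-2 RNAi (RNAi) A to C. The *glh-1* segment is 5.79% in control A and 50.8% in RNAi C, and that of *pos-1* is 14.4% in control A and 1.66% in RNAi C. Part of the smaller *pos-1* share follows from the larger *glh-1* share, since the shares are tied to each other.

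Ratios between members, chosen after their values were seen and given as a description, show which genes kept step. *mex-5* and *oma-1* kept the steadiest ratio of all 45 pairs, 2.60 to 3.19 over the 6 libraries, a span of 1.23-fold. *glh-2* and *rme-2* came next, with a ratio of 0.209 to 0.276. Spans stayed under 2-fold in 16 pairs, of which none held *glh-1*.

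The ratio of *glh-1* to *glh-2* was 0.773, 2.46 and 4.32 in control-labelled A, B and C and 9.50, 11.9 and 16.9 in the RNAi-labelled ones. Control A was the one library in which *glh-2* had more counts than *glh-1*. The ratio of *glh-1* to *pgl-1* was 0.246, 0.404 and 0.703 against 1.70, 1.69 and 1.99, so *glh-1* passed *pgl-1* in every RNAi-labelled library and in no other. Among the maternal genes, the ratio of *pos-1* to *rme-2* was 0.511, 0.323 and 0.423 against 0.141, 0.165 and 0.117. That of *oma-1* to *oma-2* overlapped between the groups, at 0.680, 0.520 and 0.555 against 0.390, 0.433 and 0.578.

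**Figure D4:**
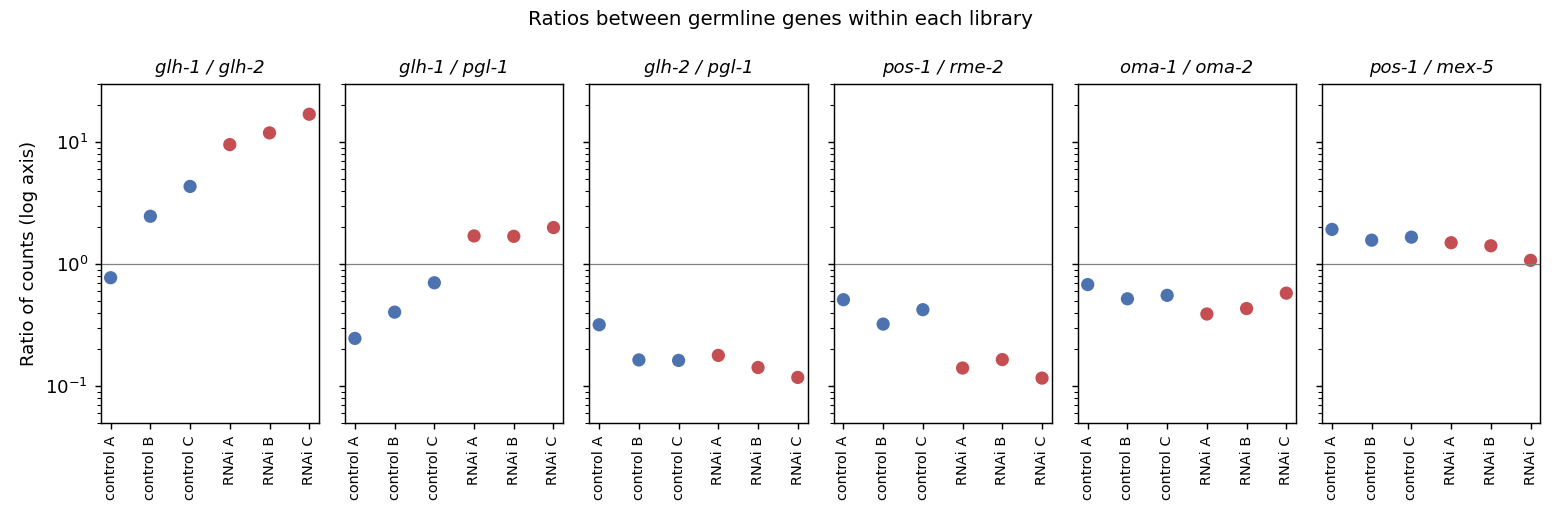
Ratios of counts between 6 pairs of genes (y axis, log scale) in each library, blue labelled control and red labelled elt-2 RNAi; the grey line marks equal counts. *glh-1* / *glh-2* runs from 0.773 to 16.9, while *oma-1* / *oma-2* stays between 0.390 and 0.680.

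The members were also ranked by count among the 19512 genes of each library. *glh-1* was 1721st, 721st and 448th in control-labelled A, B and C and 348th, 315th and 301st in the RNAi-labelled ones. *pos-1* was 590th, 1285th and 884th against 2398th, 2015th and 2649th. *pgl-1* stayed between the 359th and the 492nd place in all 6, and *pie-1*, the scarcest, between the 4391st and the 5570th.

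The germline genes outside these 10 were also mixed, list by list. Their edgeR counts stand beside the 13.0% of all genes called higher and 15.9% called lower. In all, edgeR called 3312 and DESeq2 3989 of 11474 genes, so DESeq2 counts stand beside a higher rate, whose shares by direction are not given. Of 16 P granule and small RNA factors, 1 was called higher and 0 lower (edgeR, 2 higher and 0 lower at an unadjusted p under 0.05; DESeq2 called 2 higher and 0 lower), with a median log2FC of 0.13. The one called was *wago-1*, a P granule Argonaute that binds secondary small RNAs, with 684, 738 and 379 counts in the control-labelled libraries and 689, 1120 and 884 in the RNAi-labelled ones (log2FC 1.47, edgeR adjusted p = 0.0544, lost without control A or without RNAi B or C). *ife-1*, a cap-binding eIF4E that associates with PGL-1, had 4312, 9475 and 6602 counts against 12828, 10995 and 15780 (log2FC 1.68, edgeR adjusted p = 0.102), which did not pass the test but did without control A.

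Of 14 regulators of germline stem cells and meiotic entry, 1 was called higher and 3 lower (DESeq2 called 0 higher, with 0 at an unadjusted p under 0.05, and 2 lower), with a median of 0.12. The one called higher, *gld-2*, a cytoplasmic poly(A) polymerase, had 978 counts in RNAi A and 91 to 249 in the other 5 libraries. Its log2FC of 2.28 (edgeR adjusted p = 0.0967) became 0.50 (adjusted p = 0.353) without that library. DESeq2 gave *gld-2* a log2FC of 2.39 and no adjusted p, so the 0 called higher there is no negative result for this gene. *rnp-8*, an RNA-binding partner of GLD-2, had a log2FC of 0.43 (edgeR adjusted p = 0.385). *glp-1*, the Notch receptor that keeps germ cells mitotic, fell outside the rule for named genes and was picked after its values were seen. Its counts were 302, 147 and 77 against 38, 31 and 30, with a log2FC of -1.35 (edgeR adjusted p = 0.0450).

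Of 28 meiotic chromosome genes, 26 were tested, 3 called higher and 7 lower (DESeq2 called 4 higher and 7 lower), with a median of -0.49. *zhp-3*, a RING-finger protein of crossover sites, had 309, 147 and 78 counts in the control-labelled libraries and 770, 359 and 575 in the RNAi-labelled ones. Its log2FC of 2.73 (edgeR adjusted p = 0.00912) was called whichever library was left out. *htp-1*, a HORMA-domain axis protein whose sequence is close to that of *htp-2*, had a log2FC of 1.48 (edgeR adjusted p = 0.0359, lost without RNAi C), with the split of reads between the copies uncertain. *him-17*, a chromatin protein needed for meiotic breaks, had -1.12 (edgeR adjusted p = 0.0674) and was called in 1 of the 6 leave-one-out fits.

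Of 22 other oocyte and eggshell genes, 3 were called higher and 1 lower (DESeq2 called 8 higher and 1 lower), with a median of 0.45. *cpg-2*, a chondroitin proteoglycan of the eggshell, had 5628, 3339 and 3425 counts in the control-labelled libraries and 29182, 16656 and 26816 in the RNAi-labelled ones. Its log2FC of 3.45 (edgeR adjusted p = 0.0109) was called whichever library was left out. *chs-1*, the eggshell chitin synthase, had 1307, 810 and 779 counts against 2500, 1921 and 2176 (log2FC 2.09, edgeR adjusted p = 0.0179, lost at 0.104 without RNAi C). *egg-3*, which anchors chitin synthase at the oocyte cortex, had the opposite sign, -1.09 (edgeR adjusted p = 0.0673, called in 1 of the 6 leave-one-out fits).

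Of 15 sperm genes, 12 were tested, 2 called higher and 0 lower (edgeR, 2 and 0 at an unadjusted p under 0.05; DESeq2 called 4 higher and 0 lower), with a median of 0.79. *gsp-3*, a sperm protein phosphatase, had 102, 157 and 94 counts in the control-labelled libraries and 1408, 1155 and 1452 in the RNAi-labelled ones. Its log2FC of 4.31 (edgeR adjusted p = 0.00477) was called in all 6 leave-one-out fits, although reads shared with *gsp-4*, a close copy named here for its sequence (0.87, adjusted p = 0.137), make the split uncertain. Several calls of these lists depended on single libraries, and the number of genes called in all moved too. It was 3312 of 11474 with all 6 libraries. Without control A, B or C it was 1645 of 11726, 3005 of 11914 and 4290 of 12886. Without RNAi A, B or C it was 1687 of 12653, 1264 of 12690 and 465 of 12715. The 7 meiotic genes called lower became 0 without control A (7 lower at an unadjusted p under 0.05), RNAi A (5) or RNAi C (2). They became 3 without control C, 2 without RNAi B and 8 without control B. The 3 stem cell regulators called lower became 1 without control A and 0 without RNAi A, B or C (2, 3 and 1 lower at an unadjusted p under 0.05). The 3 oocyte genes called higher became 1 without RNAi C. The 2 sperm genes called higher became 5 without control C and stayed at 2 in every other such fit. By library size the calls of these lists were 0 higher and 7 lower for P granule factors, 0 and 7 for stem cell regulators, 0 and 15 for meiotic genes, 1 and 10 for oocyte genes and 1 and 2 for sperm genes, beside 3.84% of all genes called higher and 52.3% called lower.

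**Figure D5:**
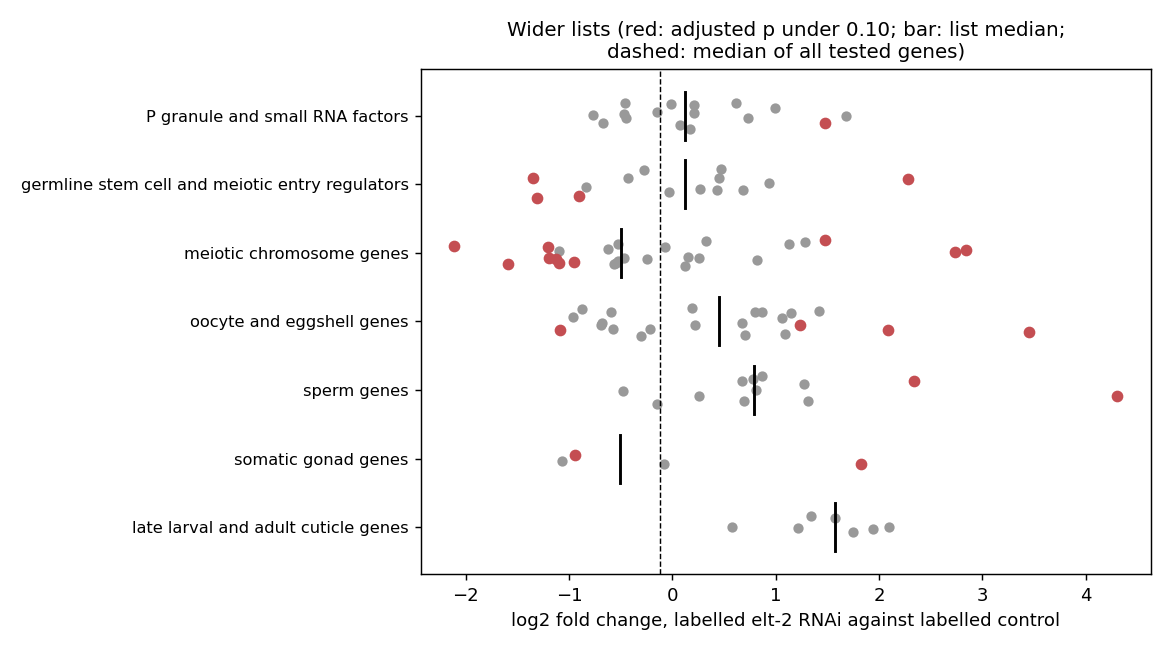
Each point is 1 tested gene of a list, placed by its TMM log2FC (x axis, labelled elt-2 RNAi against labelled control); red points passed an adjusted p of 0.10, bars are list medians and the dashed line is the median of all tested genes, -0.12. List medians run from -0.51 for somatic gonad genes to 1.57 for cuticle genes, in which no gene is red.

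The somatic gonad was thinly covered. Its defining markers *lim-7*, *lag-2* and *fkh-6* had 0 to 2 counts in every library, and of the 7 listed genes 4 were tested, 1 called higher and 1 lower. *inx-8*, a gap junction protein of the gonadal sheath, was the one called lower (-0.94, edgeR adjusted p = 0.0830, called in 1 of the 6 leave-one-out fits).

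Genes of the cuticle, which is remade at each molt, set control A and control B apart from the other 4 libraries. *col-19*, an adult collagen, had 6997 and 19572 counts in control A and B, 205249 in control C and 178151 to 256054 in the RNAi-labelled libraries (log2FC 1.94, edgeR adjusted p = 0.314, and 5.11 with adjusted p = 0.0253 without control C). The summed level of all 7 late larval and adult cuticle genes was 128, 643 and 8788 CPM in the control-labelled libraries and at least 9423 CPM in the RNAi-labelled ones, with 0 of 7 called in either direction (edgeR, 0 and 0 at an unadjusted p under 0.05; DESeq2 called 2 higher). Nearly all of this summed level was *col-19*, at 122.5, 624.6 and 8711 CPM in control-labelled A, B and C. In the same list *lin-29* did not set control A and B apart. Its levels were 0.735, 0.670 and 0.806 CPM in the control-labelled libraries and 0.726, 1.255 and 1.335 CPM in the RNAi-labelled ones. Without control C, edgeR called 6 of the 7 cuticle genes higher, beside 4290 of 12886 genes called in all in that fit. *dpy-10*, a furrow collagen chosen here after its values were seen, had 2481 and 1393 counts in control A and B and 24 to 37 in the other 4 libraries. *glh-1* was lowest in the same libraries, at 17.9 CPM in control A and 68.4 CPM in control B, and its log2FC was 1.86 without the first and 2.37 without the second. The part of these cuticle differences in the germline values was not tested.

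The genes whose profile over the 6 libraries was nearest to the members' mean profile were *hpo-34*, *ify-1*, *rpc-2*, *mtrr-1*, *phb-1* and *ttr-47*, in a search of 5416 genes averaging 5 CPM or more. Their root mean square difference from it, on centred log2 CPM, was 0.109 to 0.138, against a median of 0.678 over the genes searched. Members themselves lay between 0.150 (*glh-2*) and 1.51 (*glh-1*) from their own mean. *pos-1* lay at 0.636, near the median of the genes searched, so the mean profile described *glh-1* and *pos-1* poorly. That mean joins rising and falling members and ran only from -0.36 to 0.27. The 6 nearest genes changed little, with log2FCs of 0.035 to 0.19. *ify-1*, the securin that holds back chromosome separation, had levels of 9.72, 10.02 and 12.1 CPM in the control-labelled libraries and 11.4, 12.6 and 12.3 CPM in the RNAi-labelled ones.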

How the data were processed

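Whole-worm polyadenylated RNA was profiled with 3SEQ, which sequences the 3′ ends of transcripts. Raw counts of reads for each gene were deposited, from reads mapped with Bowtie (version 0.12.7 per the submitters' processing notes). Genome build, annotation, counting program and strand use are not given in the sources used here. Per the study's methods, counts sample 3′ ends and were not divided by length. None of the columns was left out.

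Counts were tested with edgeR 4.0.16 in R 4.3.3 (filterByExpr, TMM, glmQLFit and glmQLFTest, two-sided) over 11474 genes, with Benjamini-Hochberg adjustment and calls at an adjusted p under 0.1. The biological coefficient of variation was 0.525. The study used rank products and scaled by library size. A count model replaced the first and the second is an alternative. Other alternatives were DESeq2 1.42.0, library size leaving out the top 3% of genes, other filters, an adjusted p under 0.05, a replicate block, each library left out, and both B libraries left out. The scripts were tested on simulated data, drawn from a common mean profile scaled by library size with changed genes added. That test does not cover the differences in composition between these libraries.

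The members and lists were chosen with earlier results of these data known. Named genes are the 10 members, *elt-2*, from each list the 2 called genes with the largest rise and the 2 with the largest fall at a mean of at least 5 CPM (or, with none called in a direction, the most abundant), and the 6 genes of nearest profile (log2 CPM, pseudocount 0.5). Positions come from WBcel235 (Ensembl release 115), matched by sequence name for 97.8% of genes, and are not part of the deposited table. No sequences are printed.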

Additional observations from a re-analysis of the deposited data

How the results depend on the processing

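Scaling moved the members most. By library size alone 8 members were called lower, 6441 genes were called in all and the members' median log2FC was -1.79. *pgl-1* (-0.77), *glh-2* (-1.37) and *rme-2* (-1.10) turned sign. Leaving out the top 3% of genes gave 5 members called lower, 4955 genes called in all (shares by direction not given) and a median of -0.75. This scaling put *glh-2* at -0.35 and *rme-2* at -0.083, and DESeq2 put *puf-5* at 0.0091. With no filter on low counts 0 members were called lower (edgeR, 1 lower at an unadjusted p under 0.05; DESeq2 called 1). At an adjusted p under 0.05, 1587 genes and 0 members in either direction were called, against 1 and 1 at an unadjusted p under 0.05. The causes were not tested.

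With each library left out in turn, members called higher and members called lower each ran from 0 to 1, the members' median from -0.36 to 0.0094, the genes called in all from 465 (without RNAi C) to 4290 (without control C), and *elt-2* from 2.80 to 5.24, its calls being lost without control A or RNAi C. *puf-5* ran from -0.27 to 0.12. Without both B libraries 0 members were called in either direction (0 higher and 1 lower at an unadjusted p under 0.05), 1863 genes were called and the median was -0.46.

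The values show no pairing by the letters A, B and C: deviations of same-letter libraries correlated at -0.203, -0.574 and -0.109 over 11474 genes. Deviations from a mean of 3 libraries are tied to one another, so these correlations cannot tell whether cultures were handled in letter pairs. With the letter as a replicate block, 1219 genes were called, 1 member higher and 0 lower (edgeR, 0 lower at an unadjusted p under 0.05). No library correlated best with its own letter. The members had 65 to 8545 counts per library. The parts of depth and of the spread between 3 libraries per group in the precision were not tested.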

Other observations

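The genes nearest in profile to *glh-1* and *pos-1* were picked after their values were seen and are given as a description with no test. Nearest to *glh-1* over the 6 libraries, in the same search of 5416 genes, were Y71G12B.30, R03D7.8, Y71G12B.27 and Y66A7A.7, with root mean square differences of 0.115 to 0.149 on centred log2 CPM. Y71G12B.30 had 71, 187 and 292 counts in control-labelled A, B and C and 734, 605 and 769 in the RNAi-labelled ones (log2FC 2.52, edgeR adjusted p = 0.0553). Its RNAi-labelled libraries all lay above its control-labelled ones, with control A lowest.

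Nearest to *pos-1* were *erd-2.2*, *natc-1*, *mei-2* and *bub-3*, at 0.0978 to 0.126. *mei-2* encodes a subunit of katanin, the microtubule-severing enzyme of the oocyte meiotic spindle, and *bub-3* a spindle checkpoint protein. *mei-2* had 1249, 419 and 566 counts in the control-labelled libraries and 214, 221 and 148 in the RNAi-labelled ones (log2FC -0.96, edgeR adjusted p = 0.102). *bub-3* had 955, 405 and 419 counts against 177, 177 and 128 (-0.91, edgeR adjusted p = 0.0870).

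The 8 likenesses rest on the same 6 libraries and the same scaling, so they are shown for the genes named and nothing further is read from them.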
